A study of Mus musculus with 6 samples.

Results

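The genes described here are 10 of the mouse enzymes that remove acetyl groups from histones and other proteins. They are the class I histone deacetylases *Hdac1*, *Hdac2*, *Hdac3* and *Hdac8*, the class IIa histone deacetylases *Hdac5* and *Hdac7*, and the sirtuins *Sirt1*, *Sirt2*, *Sirt3* and *Sirt6*. They were taken by symbol from the 46983 genes of the expression table, whose Ensembl IDs were matched to GENCODE vM21, and all 10 were found. The rule names the genes and sets no threshold on their values. All 10 also passed the filter on low values, as did 13312 genes in all.

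The values came from bulk RNA-seq of splenic B cells from WT and *Hif1a* KO mice, with 3 libraries of each, kept for 3 days under conditions that direct class switching to IgA. Both groups received LPS at 5 μg/ml together with 10 ng/ml each of TGF-β, IL-5 and BAFF. By the methods of the study, the starting cells were follicular B cells sorted as CD21int CD23+. The mice were on a C57BL/6 background. KO mice were *Hif1a* f/f with *Mb1*-cre, which is expressed throughout the B-cell lineage from early stages on. WT mice were littermates, either *Hif1a* f/+ with cre or *Hif1a* f/f without it, and the labels do not tell which genotype a WT library had, nor the age of the mice. Nothing in the labels says that replicates were separate mice or cultures, so the p-values measure the spread between these libraries, which may be technical. KO replicate 2 alone held Y-linked transcripts, as given below, so its source differed from that of the other KO libraries. The targeted gene was not a check of the labels. Its values sum the reads of the whole gene, and *Hif1a* FPKM was 36.5, 49.8 and 45.8 in WT and 46.5, 45.6 and 52.8 in KO libraries.

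Lysine acetylation of histone tails is written by acetyltransferases from acetyl-CoA and erased by deacetylases, and acetylated chromatin is generally more open. Class I and class IIa deacetylases use a zinc ion at their catalytic site. The sirtuins consume NAD+ for each acetyl group they take off, which ties them to the metabolic state of the cell. The study examined how HIF-1α, the oxygen-regulated subunit of a transcription factor that drives glycolysis, acts on acetyl-CoA and on histone acetylation at the IgA switch region. The comparison of the deacetylase genes asks whether the transcripts of the erasing side differed between the genotypes.

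No deacetylase or sirtuin of the 10 was differentially expressed, and in none of them did the KO libraries lie wholly above or below the WT libraries. With limma on log2(FPKM + 1) and Benjamini-Hochberg adjustment, 0 of the 10 had an adjusted p under 0.05, and the background over all genes tested was 0.0%. At an unadjusted p under 0.05 there were 0 of the 10, where the background was 6.98%. The groups did not overlap in 0 of the 10, against 10.1% of all genes tested. The study itself tested read counts with DESeq, also at an adjusted p under 0.05, and reported differentially expressed genes between these genotypes. That test was not repeated here. FPKM scales the number of reads on a gene by the length of the gene and by the number of reads of the library. Log2 fold changes are KO minus WT throughout, on the log2(FPKM + 1) scale, which understates changes of low genes. Of the 10 genes, 5 had a positive and 5 a negative value, with a median of 0.011. Over all genes tested, 42.1% had a positive value and the median was −0.028. With median-ratio scaling of the libraries, the median was 0.044 for the 10 genes and 0.0019 for all genes tested. The 95% confidence intervals of the 10 genes lay between −0.43, the lower bound of *Sirt6*, and 0.48, the upper bound of *Hdac7*, which as ratios of KO to WT are 0.745 and 1.39. In bulk RNA, fewer cells of a type and less RNA per cell cannot be told apart.

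**Figure D1:**
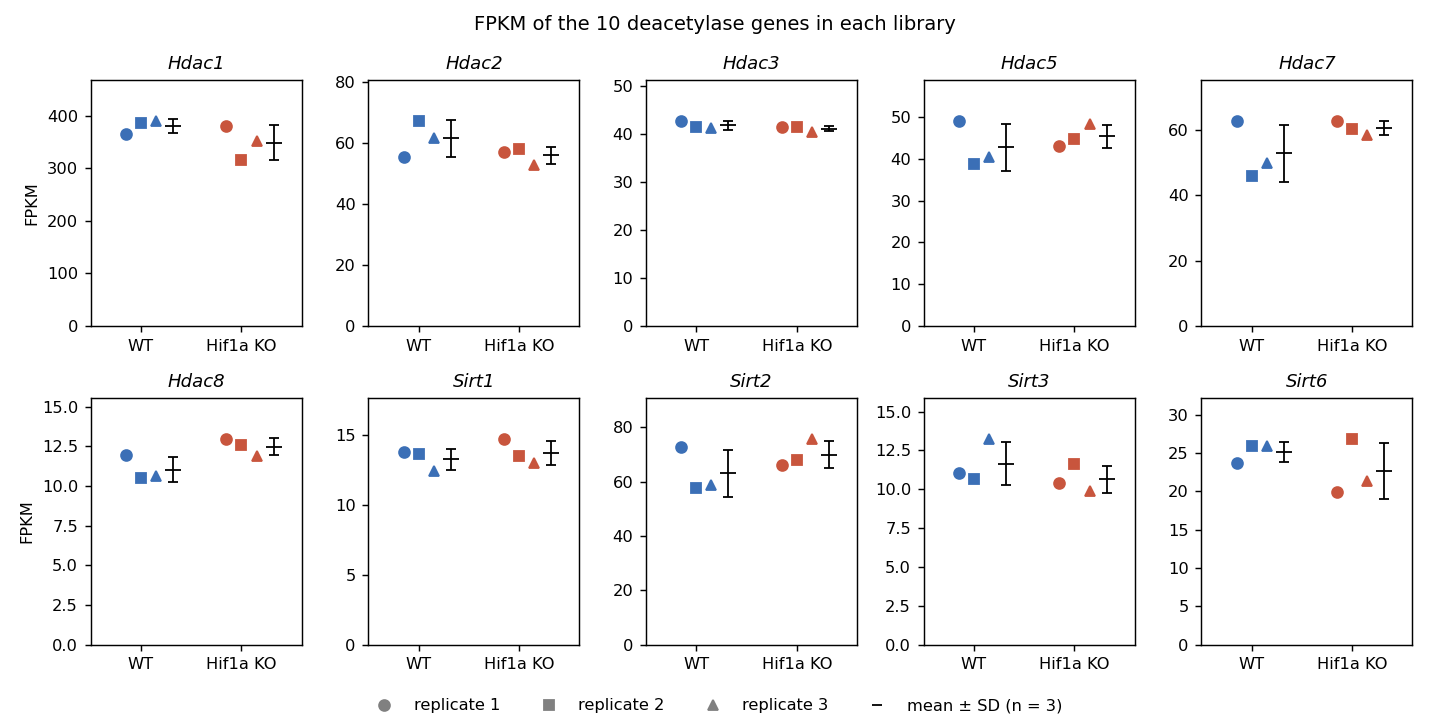
FPKM of the 10 deacetylase genes in each library, with WT in blue and *Hif1a* KO in red. The marker gives the replicate number and the black bars the mean ± SD (n = 3), with each vertical axis starting at 0. In every panel the WT and KO points overlap in height, and in *Hdac5*, *Hdac7*, *Hdac8* and *Sirt2* WT replicate 1 (circle) sits with the KO points.

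The libraries did not group by genotype alone, and this bears on the values that follow. On the first principal component of all genes tested (54.7% of the variance), WT replicates 2 and 3 lay at 26.2 and 25.9, whereas WT replicate 1 (−15.7) lay among the KO libraries (−19.5 to −7.10). On the second component (16.7%), KO replicate 2 stood apart at 22.6 from the other 5, and 4 Y-linked genes summed to 148 FPKM there and to at most 0.079 in the others. The B-cell marker *Cd79a* was high in every library, between 498 and 1203 FPKM. The read totals behind the FPKM values were 25.0 to 37.2 M per library. At least 99.9% of each total were reads counted on genes, so these totals are not the number of reads sequenced. Behind a single value for these 10 genes stood 251 reads (*Sirt3*, KO replicate 1) to 12581 reads (*Hdac1*, WT replicate 1), which gives a counting error of 6.31% for *Sirt3* and of 1.065% for *Hdac1* at their lowest, and this covers counting error only.

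By FPKM as deposited, *Hdac1* was the most abundant of the 10 genes, with a mean of 365 over the 6 libraries and 52.7% of the sum of the 10. *Sirt2* (66.4), *Hdac2* (58.7), *Hdac7* (56.7), *Hdac5* (44.0) and *Hdac3* (41.4) followed, and neighbours in this order overlapped in their ranges over the libraries. *Sirt6* (23.9) lay below them without overlap. *Sirt1* (13.5), *Hdac8* (11.8) and *Sirt3* (11.1) were lowest, and their ranges overlapped one another.

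This order depended on the gene length used. The length behind each FPKM value, which was found as the one that gives whole reads in all 6 libraries, equalled the mean length of the annotated transcripts in 6 of the 10 genes. Short non-coding transcripts lower that mean. *Hdac1* was counted as 926 bases long, since 6 of its 7 annotated transcripts are retained-intron fragments, while its coding transcript has 2038 bases. *Hdac5* was counted as 1766 bases against 4852 for its longest coding transcript, whereas *Hdac3* was counted as 2192 against 2032 bases. With the reads of each gene set over its longest coding transcript, *Hdac1* was still highest (166, 44.1% of the sum), and *Hdac3* moved from the sixth to the second place (44.7). *Hdac7* (41.7), *Sirt2* (36.9) and *Hdac2* (30.3) followed. *Hdac5* was at 16.0, beside *Sirt6* at 15.9, and then *Hdac8* (9.32) and *Sirt1* (8.90). Neighbours within each of these sets overlapped in their ranges, and *Sirt3* (6.67) lay below all of them. The length does not touch the comparison of KO with WT within a gene beyond the part that the pseudocount plays.

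**Figure D2:**
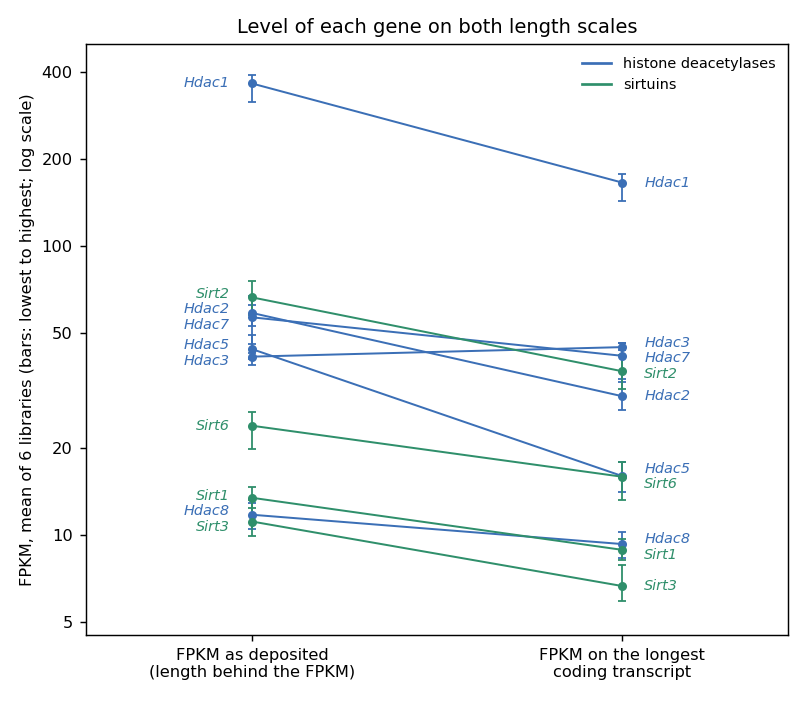
Mean FPKM of each gene over the 6 libraries on a log scale, as deposited (left) and with the reads set over the longest coding transcript (right). Bars run from the lowest to the highest library, histone deacetylases are blue and sirtuins green. *Hdac1* stays highest, *Hdac5* falls from 44.0 to 16.0 and *Hdac3* is nearly level at 41.4 and 44.7.

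*Hdac1* (ENSMUSG00000028800, chr4:129516104-129542713, minus strand, mm10) and *Hdac2* (ENSMUSG00000019777, chr10:36974544-37001889, plus strand) encode close relatives that serve as the catalytic subunits of the NuRD, Sin3 and CoREST corepressor complexes. In the order of their replicate numbers, the WT libraries had an *Hdac1* FPKM of 365, 387 and 391 and the KO libraries one of 380, 315 and 352, and this order is kept below. KO replicate 2 was the lowest and KO replicate 1 lay within the WT range. Its log2 fold change was −0.13 (SE 0.08, limma adjusted p = 0.646). With 1 library left out it lay between −0.19 (without KO replicate 1) and −0.057 (without KO replicate 2). *Hdac2* FPKM was 55.4, 67.3 and 61.7 in WT and 57.1, 58.0 and 52.7 in KO libraries. All KO values lay below WT replicates 2 and 3, but WT replicate 1 was lower than 2 of them. Its log2 fold change was also −0.13 (SE 0.09, limma adjusted p = 0.650), and −0.20 or −0.065 when WT replicate 1 or 2, respectively, was left out.

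The *Hdac1* value is not fully separable from that of *Gm10093*, a processed pseudogene on chromosome 17 (chr17:78491582-78493025, plus strand, mm10). The pseudogene is a single exon of 1444 bases that aligned to the *Hdac1* coding transcript with 9 differences and 0 gaps, an identity of 99.38%, and the longest stretch without a difference was 450 bases. Of all stretches of 100 bases in the *Hdac1* transcripts, 24.9% occur in another annotated transcript as well. The fifth exon of *Hdac1*, the wholly coding exon with the most differences, is shown beside the matching part of the pseudogene, since these few bases are all that tell a read of one from a read of the other here. Both are from GRCm38, 5′ to 3′ in the direction of the gene, with the 6 differing bases of 139 in capitals.
Hdac1 exon 5, chr4:129522963-129523101, minus strand: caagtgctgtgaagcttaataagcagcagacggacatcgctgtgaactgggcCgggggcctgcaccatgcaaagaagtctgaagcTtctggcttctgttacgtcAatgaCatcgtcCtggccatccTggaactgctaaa
Gm10093, chr17:78491937-78492075, plus strand: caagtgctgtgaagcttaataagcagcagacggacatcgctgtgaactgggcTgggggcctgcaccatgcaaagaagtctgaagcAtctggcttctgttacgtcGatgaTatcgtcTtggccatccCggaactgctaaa

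Reads counted on *Gm10093* numbered 1012, 1025 and 675 in WT and 745, 2480 and 755 in KO libraries. As a share of the reads on both genes they were 7.44%, 8.45% and 6.70% in WT and 7.80%, 19.8% and 7.19% in KO libraries. KO replicate 2 thus stood apart from the other 5 libraries, and it was also the library with the lowest *Hdac1*. Summed over both genes, the reads per M reads of the library were 365, 392 and 388 in WT and 382, 364 and 351 in KO libraries, so KO replicate 2 then lay next to WT replicate 1. In an alternative added after the data were seen, the log2 fold change of the sum was −0.061, against −0.13 for *Hdac1* alone. How the counting treated reads that align to both places is not given in the sources used here, and whether the reads on *Gm10093* came from *Hdac1* was not tested.

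**Figure D3:**
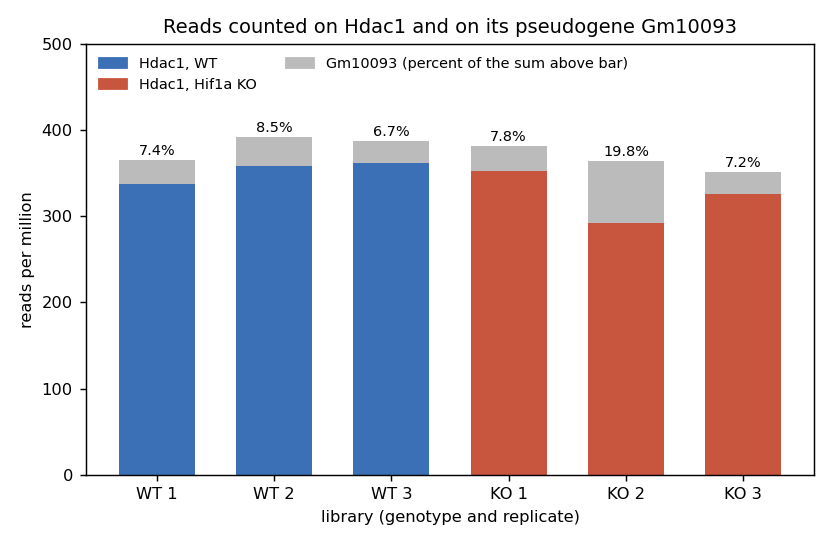
Reads per M reads of the library counted on *Hdac1* (WT blue, *Hif1a* KO red) and on *Gm10093* (grey, stacked on top) in each library, with the share of *Gm10093* in the sum printed above each bar. The share is 19.8% in KO replicate 2 and 6.70% to 8.45% in the other libraries, while the full bars run from 351 to 392.

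The ratio of *Hdac1* to *Hdac2* within a library needs no scaling between libraries. Its log2 value was 2.72, 2.52 and 2.66 in WT and 2.74, 2.44 and 2.74 in KO libraries. The sign of the difference turned with the library left out, from −0.051 without WT replicate 2 to 0.10 without KO replicate 2. With all 6 libraries the difference of the means, 0.0046, was smaller than the SD of either group (0.10 in WT and 0.17 in KO, n = 3 each; exact permutation test, two-sided, p = 1.0, and 1.0 adjusted over the 3 ratios tested). With 3 libraries against 3 that test cannot give a p below 0.1.

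*Hdac3* (ENSMUSG00000024454, chromosome 18, minus strand) encodes the catalytic subunit of the NCoR and SMRT corepressor complexes. It was the steadiest of the 10 genes, with a coefficient of variation of 1.77% over the 6 libraries, against 5.69% to 12.5% in the other 9. Its FPKM was 42.8, 41.4 and 41.2 in WT and 41.4, 41.4 and 40.5 in KO libraries, and the groups overlapped. The log2 fold change was −0.024 (SE 0.05, limma adjusted p = 0.879), with a confidence interval from −0.15 to 0.11, and with median-ratio scaling of the libraries its sign turned (0.0098). Leaving out 1 library gave −0.034 (without WT replicate 3) to −0.0078 (without WT replicate 1).

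*Hdac8* (ENSMUSG00000067567, chrX:102284639-102505359, minus strand) encodes a class I enzyme that is not known to need a large complex and that deacetylates the cohesin subunit SMC3. Its FPKM was 11.95, 10.5 and 10.6 in WT and 12.95, 12.6 and 11.92 in KO libraries. WT replicate 1 lay just above KO replicate 3, and this pair alone kept the groups from separating. This gave a log2 fold change of 0.17 (SE 0.08, limma adjusted p = 0.626), and it lay between 0.14 and 0.22 when 1 library was left out. *Hdac8* is X-linked, and KO replicate 2, the library with Y-linked transcripts, had the middle value of the KO libraries.

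*Hdac5* (ENSMUSG00000008855, chr11:102194432-102230166, minus strand) and *Hdac7* (ENSMUSG00000022475, chr15:97792664-97844502, minus strand) encode class IIa enzymes. These bind MEF2 transcription factors in the nucleus and are held in the cytoplasm by 14-3-3 proteins once kinases such as PKD and SIK have phosphorylated them, and HDAC7 is known for silencing genes of other lineages in B-cell precursors. *Hdac7* FPKM was 62.7, 46.0 and 49.9 in WT and 62.8, 60.2 and 58.6 in KO libraries. WT replicates 2 and 3 were lowest, and WT replicate 1 lay just under the highest KO value. The log2 fold change of 0.20 (SE 0.11, limma adjusted p = 0.626) was the largest in size of the 10 genes with all libraries. It fell to 0.11 without WT replicate 2, where *Sirt3* (−0.17), *Hdac8* (0.14), *Sirt6* (−0.13) and *Hdac1* (−0.12) were larger in size. Without KO replicate 2, *Sirt6* (−0.27) was larger in size, and without KO replicate 1, *Hdac1* (−0.19) and *Sirt2* (0.19) were. *Hdac5* FPKM was 49.1, 38.6 and 40.5 in WT and 43.0, 44.6 and 48.3 in KO libraries. Here too WT replicates 2 and 3 were lowest, and WT replicate 1 was the highest of all 6. Its log2 fold change was 0.089 (SE 0.10, limma adjusted p = 0.759), and 0.022 without WT replicate 2, 0.055 without WT replicate 3 and 0.043 without KO replicate 3.

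The log2 ratio of *Hdac5* to *Hdac7* within a library was −0.35, −0.25 and −0.30 in WT and −0.54, −0.43 and −0.28 in KO libraries. The groups overlapped, and the difference of −0.12 did not pass the exact permutation test (two-sided, p = 0.3, and 0.45 adjusted over the 3 ratios). It was −0.053 without KO replicate 1 and −0.19 without KO replicate 3.

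*Hdac7* was the single gene of the 10 whose call depended on WT replicate 1. When it was left out, *Hdac7* changed by 0.33 on the log2 scale (SE 0.06, limma adjusted p = 0.0342, against 0.0342 to 1.0 over all alternatives). The same fit called 9.4% of all genes tested, so 1 of 10 is a share near the background. In it, KO libraries lay above both remaining WT libraries for *Hdac5*, *Hdac7*, *Hdac8* and *Sirt2* and below them for *Hdac1* and *Hdac2*. These 6 of 10 stand against 50.5% of all genes tested. Without WT replicate 1 the log2 fold change of *Sirt2* was 0.26 (limma adjusted p = 0.0769), that of *Hdac8* 0.22 (0.104), that of *Hdac5* 0.19 (0.136) and that of *Hdac2* −0.20 (0.122).

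**Figure D4:**
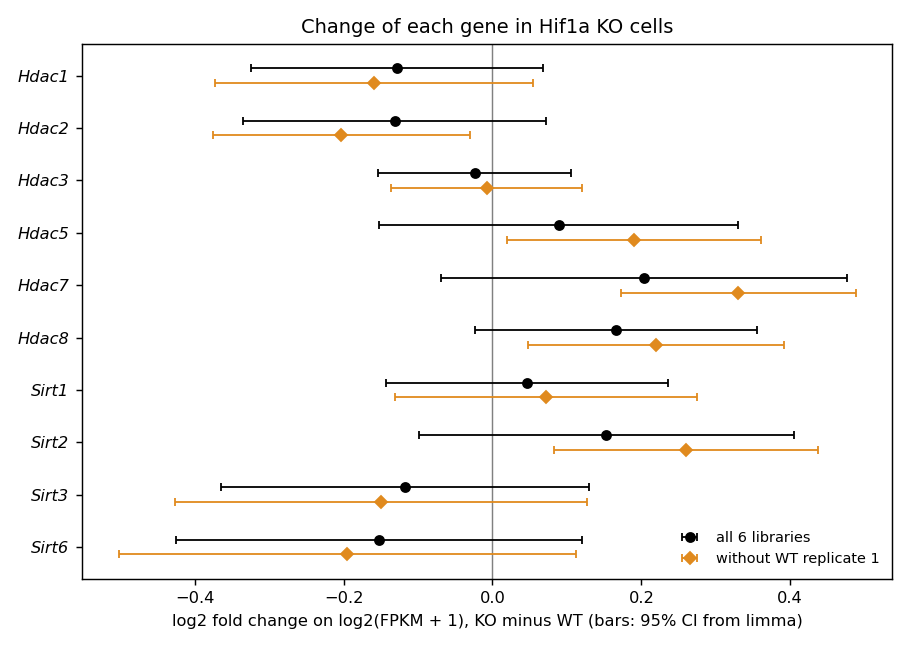
Log2 fold change of each gene (KO minus WT) with its 95% confidence interval from limma, with all 6 libraries (black circles) and without WT replicate 1 (orange diamonds). All 10 black intervals include 0. Without WT replicate 1 the value of *Hdac7* moves from 0.20 to 0.33, and the intervals of *Hdac2*, *Hdac5*, *Hdac7*, *Hdac8* and *Sirt2* no longer include 0 (5 of 10, where 29.9% of all genes tested have an unadjusted p under 0.05 in that fit), although of these *Hdac7* alone passed after adjustment.

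WT replicates 2 and 3, which were lowest in *Hdac5*, *Hdac7*, *Hdac8* and *Sirt2*, also differed from the other libraries in markers of other cells. The 8 macrophage markers summed to 158 and 111 FPKM there, against 67.8 in WT replicate 1 and 61.1 to 73.1 in KO libraries. *Adgre1* made up most of that sum. *Lyz2* had 58.3 and 26.2 FPKM there, 6.18 in WT replicate 1 and no more than 3.70 in any KO library, and was the one of the 4 macrophage markers tested whose groups did not overlap. *C1qa*, named after its values were seen, had 2.98 and 1.33 there and at most 0.193 elsewhere, while *Csf1r*, *Cd14*, *C1qb* and *C1qc* had a mean FPKM under 0.5. *Mrc1*, also tested, did not follow, with 1.04 and 0.714 FPKM there, 0.938 in WT replicate 1 and 0.884 to 1.12 in KO libraries. The erythroid marker *Hbb-bs*, a globin gene, had 8.05 and 5.595 FPKM there, against 0.511 in WT replicate 1 and 0.353 to 0.829 in KO libraries. The sum of the 5 plasma cell markers went the other way, with 429 and 399 against 715 in WT replicate 1 and 505 to 906 in KO libraries. *Prdm1*, *Xbp1* and *Jchain* were lowest in WT replicates 2 and 3, but *Sdc1* and *Irf4* were not. *Sdc1* had 3.80 and 3.19 FPKM in WT replicates 2 and 3 and 2.68 in KO replicate 1. *Irf4* had 104 and 101 FPKM in WT replicates 2 and 3 and 96.9 in KO replicate 2. Neutrophil markers reached 31.3 FPKM in WT replicate 1 and at most 0.442 elsewhere, and 3 of these 5 genes (*Ly6g*, *Elane* and *Mpo*) stayed below 1 FPKM in every library. Of the 6 T-cell markers, *Lck* alone exceeded 1 FPKM, with 96.2 and 90.1 in WT replicates 2 and 3 against 131 to 137 elsewhere. The 5 dendritic cell markers summed to 11.96 to 14.9 FPKM in WT and 8.67 to 10.3 in KO libraries. Their part in the values of the 10 genes was not tested.

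*Sirt1* (ENSMUSG00000020063, chr10:63319005-63381704, minus strand) and *Sirt6* (ENSMUSG00000034748, chr10:81621785-81627797, minus strand) encode nuclear sirtuins. SIRT1 deacetylates histones and many transcription factors, and SIRT6 deacetylates histone H3 and is known as a corepressor of HIF-1α at glycolytic genes. *Sirt1* FPKM was 13.7, 13.6 and 12.4 in WT and 14.7, 13.5 and 13.0 in KO libraries, so the groups interleaved. Its log2 fold change was 0.046 (SE 0.08, limma adjusted p = 0.839), and it ran from 0.0001 without KO replicate 1 and 0.0025 without WT replicate 3 to 0.082 without KO replicate 3. *Sirt6* FPKM was 23.6, 25.9 and 25.9 in WT and 19.9, 26.8 and 21.4 in KO libraries. KO replicates 1 and 3 were lowest, and KO replicate 2 was the highest of all 6. A log2 fold change of −0.15 (SE 0.11, limma adjusted p = 0.672) resulted, with −0.27 without KO replicate 2 (limma adjusted p = 0.683) and −0.068 without KO replicate 1. The log2 ratio of *Sirt1* to *Sirt6* was −0.78, −0.93 and −1.06 in WT and −0.44, −0.99 and −0.72 in KO libraries. It overlapped between the groups, and the difference of 0.21 did not pass the exact permutation test (two-sided, p = 0.3, and 0.45 adjusted over the 3 ratios). It was 0.35 without KO replicate 2 and 0.071 without KO replicate 1.

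*Sirt2* (ENSMUSG00000015149, chr7:28766735-28788661, plus strand) encodes a mainly cytoplasmic sirtuin that deacetylates tubulin. Its FPKM was 72.8, 57.6 and 58.6 in WT and 66.2, 67.9 and 75.6 in KO libraries. WT replicates 2 and 3 were again lowest, and WT replicate 1 lay inside the KO range. The log2 fold change was 0.15 (SE 0.11, limma adjusted p = 0.656), and 0.093 to 0.106 when WT replicate 2, WT replicate 3 or KO replicate 3 was left out. *Sirt3* (ENSMUSG00000025486, chr7:140863666-140882309, minus strand) encodes the main deacetylase of the mitochondrial matrix. Its FPKM was 11.04, 10.7 and 13.2 in WT and 10.4, 11.6 and 9.89 in KO libraries, with WT replicate 3 highest and the rest mixed. Its log2 fold change was −0.12 (SE 0.10, limma adjusted p = 0.701), and it ran from −0.18 without KO replicate 2 to −0.030 without WT replicate 3. Of the exon bases of *Sirt3*, 12.7% are shared with *Ric8a* and *Psmd13* on the opposite strand, and the strand setting of the counting is not given in the sources used here, so its value is uncertain. In *Hdac5*, *Hdac7*, *Sirt1* and *Sirt2* the shared part was 0.429% to 1.26% of the exon bases, and in the other 5 genes it was 0.0%.

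Because HIF-1 binds DNA at the core of the hypoxia response element, the promoters of these genes were searched for its letters, ACGTG and GCGTG, on both strands. The windows were those of RefSeq (GRCm38.p6), from 250 bases before to 50 bases after a start. The search covered windows of 8 of the 10 genes, 13 windows in all, and *Hdac1* and *Hdac3* were not searched. A match was found in 5 of the 13, at 1 window each of *Hdac5*, *Hdac7*, *Sirt1*, *Sirt2* and *Sirt6*, while 43.8% of 32851 promoters of the same length hold one. The palindrome CACGTG, which holds ACGTG on both strands and is also the E-box letter sequence, was in *Hdac5* and *Sirt1* and in 7.15% of all promoters. Windows are shown for *Hdac7* and *Hdac8*, the genes with the 2 largest changes in size, and for *Sirt1*, which had the most matches (6, in 4 separate stretches). *Hdac7* had several windows, of which the only one with a match is shown. All are given 5′ to 3′ in the direction of the gene, with the matches in capitals, and *Hdac8* has none.
Hdac7, chr15:97831718-97832017, minus strand: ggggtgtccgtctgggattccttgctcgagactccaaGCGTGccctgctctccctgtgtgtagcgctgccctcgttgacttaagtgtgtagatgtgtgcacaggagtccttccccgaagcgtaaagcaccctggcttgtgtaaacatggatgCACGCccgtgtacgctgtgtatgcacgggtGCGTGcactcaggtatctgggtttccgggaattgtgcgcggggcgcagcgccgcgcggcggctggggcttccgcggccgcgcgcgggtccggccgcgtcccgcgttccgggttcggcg
Hdac8, chrX:102505109-102505408, minus strand: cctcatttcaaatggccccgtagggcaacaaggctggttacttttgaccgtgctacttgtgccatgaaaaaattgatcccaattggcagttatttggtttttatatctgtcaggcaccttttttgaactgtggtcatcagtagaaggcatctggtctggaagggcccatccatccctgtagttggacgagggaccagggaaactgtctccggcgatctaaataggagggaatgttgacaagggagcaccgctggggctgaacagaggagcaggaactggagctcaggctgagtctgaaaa
Sirt1, chr10:63338986-63339285, minus strand: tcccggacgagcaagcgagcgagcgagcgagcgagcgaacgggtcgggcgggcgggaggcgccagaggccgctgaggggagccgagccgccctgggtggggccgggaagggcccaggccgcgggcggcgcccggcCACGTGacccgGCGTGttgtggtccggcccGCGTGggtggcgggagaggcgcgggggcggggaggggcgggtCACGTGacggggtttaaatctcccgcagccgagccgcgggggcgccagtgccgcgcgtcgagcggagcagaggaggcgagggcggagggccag
A match of these letters is a description of the window and not a binding site. Genes with a match (*Hdac5*, *Hdac7*, *Sirt1*, *Sirt2* and *Sirt6*) had log2 fold changes from −0.15 to 0.20, and those with a window and no match (*Hdac2*, *Hdac8* and *Sirt3*) from −0.13 to 0.17.

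The genes most like *Hdac7* and *Hdac8* in their profile were sought among the 9274 other genes at a mean of 5 FPKM or more. Likeness was the root mean square difference of the log2(FPKM + 1) values over the 6 libraries after each gene's mean was taken off. For *Hdac7* these were *Pin4* (0.032), *Zfp810* (0.037) and *Gm6863* (0.038). For *Hdac8* they were *Phf14* (0.018), *Runx1* (0.021) and *Gpr174* (0.023). In all 6 of these genes WT replicates 2 and 3 were the lowest libraries, as they were in *Hdac7* and *Hdac8*, whose profiles served to choose them. Among the 10 deacetylase genes, *Hdac8* was nearest to *Hdac7* (0.082), as the 154th of those genes in order, and *Sirt6* was farthest (0.28).

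The other 8 genes of the family were *Hdac4*, *Hdac6*, *Hdac9*, *Hdac10*, *Hdac11*, *Sirt4*, *Sirt5* and *Sirt7*. Likewise, 0 of these 8 were differentially expressed with limma, against 0.0% of all genes tested. An unadjusted p under 0.05 was found in 0 of 8 (background 6.98%). The groups were without overlap in 0 of 8 (background 10.1%). Their median log2 fold change was −0.079, with 2 positive and 6 negative. The highest level was that of *Sirt7*, the nucleolar sirtuin, with a mean FPKM of 59.4 and a log2 fold change of −0.039 (SE 0.07). *Hdac4*, a class IIa enzyme, had 8.44, 12.9 and 11.9 in WT and 9.47, 8.34 and 7.72 in KO libraries. Its WT replicates 2 and 3 were the highest libraries, which is the opposite of *Hdac5* and *Hdac7*, and its log2 fold change was −0.33 (SE 0.16, limma adjusted p = 0.626). *Hdac9*, also of class IIa, had 15.6, 14.4 and 12.5 in WT and 16.1, 15.3 and 16.9 in KO libraries, with overlap and a log2 fold change of 0.17 (SE 0.09).

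The partners of these enzymes were described by 11 further lists, which with the 8 family genes held 101 genes, of which 91 were tested. None of the 91 was differentially expressed with limma and Benjamini-Hochberg adjustment, against 0.0% of all genes tested. An unadjusted p under 0.05 was found in 3 of the 91, where the background was 6.98%. The groups did not overlap in 9 of the 91 (9.89%, against the background of 10.1%), with 5 higher and 4 lower in KO libraries. Without WT replicate 1, 9 of the 91 were called (9.89%, against 9.4% of all genes), 5 higher and 4 lower. With all libraries, the median log2 fold change was −0.028 over the 91 and −0.028 over all genes tested. Of all genes tested, 42.1% had a positive log2 fold change, which is the background for the signs in each list.

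Among the subunits of the complexes that hold HDAC1 and HDAC2, the 11 NuRD genes tested had a median log2 fold change of −0.11 (3 positive, 8 negative). *Mta2*, a scaffold subunit and the most abundant, had a mean FPKM of 268 and a log2 fold change of −0.023. *Mta1*, its paralog, had 45.8, 48.2 and 46.2 in WT and 42.3, 41.3 and 40.7 in KO libraries. Every KO value was under every WT value, by a log2 fold change of −0.17 (SE 0.06, limma adjusted p = 0.626). The 13 Sin3 genes had a median of −0.071 (3 positive, 10 negative). *Sap18* was most abundant (mean FPKM of 88.3, log2 fold change of −0.074), and the scaffold gene *Sin3b* and *Brms1* lay wholly lower in KO libraries, at −0.12 (SE 0.07) and −0.086 (SE 0.07). The 8 CoREST genes tested had a median of 0.034 (7 positive, 1 negative). *Kdm1a*, the histone demethylase of that complex, was most abundant (mean FPKM of 64.3, log2 fold change of −0.046). *Zmym2* lay wholly higher in KO libraries, with 10.4, 10.6 and 10.1 in WT and 11.6, 11.5 and 10.7 in KO libraries. Of the mitotic deacetylase complex (MiDAC), 2 genes were tested, and *Elmsan1* had a mean FPKM of 31.1 and a log2 fold change of 0.069.

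For HDAC3, the 5 NCoR and SMRT genes had a median log2 fold change of −0.0099, with no gene separating the groups. *Ncor1* was most abundant, with a mean FPKM of 124 and a log2 fold change of −0.024. Of the mitotic deacetylase complex (MiDAC), 2 genes were tested, and *Elmsan1* had a mean FPKM of 31.1 and a log2 fold change of 0.069. For the class IIa enzymes, 14 genes of MEF2 factors, 14-3-3 proteins and kinases were tested, with a median of −0.0014 (7 positive, 7 negative). *Ywhae*, a 14-3-3 gene, was most abundant, with a mean FPKM of 539 and a log2 fold change of −0.073. *Mef2c*, which encodes the main MEF2 factor of B cells, lay wholly higher in KO libraries, with 151, 148 and 153 in WT and 172, 177 and 158 in KO libraries. Its log2 fold change was 0.16 (SE 0.06, limma adjusted p = 0.626).

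Around the sirtuins, the 8 genes of NAD synthesis tested had a median log2 fold change of −0.044 (3 positive, 5 negative). *Nadk*, which makes NADP from NAD, was most abundant, with a mean FPKM of 127 and a log2 fold change of −0.018. *Nadsyn1*, the last enzyme of synthesis from nicotinic acid, was wholly higher in KO libraries, with 10.2, 9.95 and 10.2 in WT and 10.6, 12.04 and 10.4 in KO libraries. *Parp1*, the most abundant of the 4 NAD-consuming genes tested, had a mean FPKM of 450 and a log2 fold change of −0.0072. Of the genes of direct regulators of SIRT1, *Ccar2*, an inhibitor, had a mean FPKM of 33.4 and a log2 fold change of −0.033. *Rps19bp1*, known as an activator, was wholly lower in KO libraries at −0.062 (SE 0.06). The 6 mitochondrial substrates of SIRT3 had a median of −0.065 (2 positive, 4 negative). *Glud1* was most abundant (mean FPKM of 173, log2 fold change of −0.068), and *Acadl* was wholly higher in KO libraries at 0.062 (SE 0.05).

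On the writing side, the 10 histone acetyltransferase genes had a median log2 fold change of −0.056 (4 positive, 6 negative). *Ep300* was most abundant, with 84.9, 104 and 103 in WT and 108, 98.2 and 87.9 in KO libraries and a log2 fold change of 0.013. *Kat2b* was wholly higher in KO libraries, with 23.8, 23.7 and 24.2 in WT and 25.7, 24.7 and 26.3 in KO libraries, a log2 fold change of 0.093 (SE 0.06). The median of the 10 deacetylase genes on the same scale was 0.011, and the difference between these medians was not tested.

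The 9 partner and family genes that were called without WT replicate 1 were picked after their values were seen. The 5 higher were *Cd38* (log2 fold change of 0.81 in that fit and 0.52 with all libraries), *Acss1* (0.83 and 0.50), *Chd3* (0.48 and 0.29), *Nmrk1* (0.42 and 0.29) and *Ing1* (0.31 and 0.19). The 4 lower were *Hdac4* (−0.50 and −0.33), *Kat6b* (−0.37 and −0.24), *Rbbp7* (−0.35 and −0.23) and *Kat2a* (−0.35 and −0.25). CD38 is a major NAD-consuming enzyme of B cells, and its gene had 103, 57.0 and 55.5 FPKM in WT and 90.1, 98.8 and 110 in KO libraries. WT replicate 1 again lay among the KO libraries, and in none of these 9 genes were the groups free of overlap when all libraries were used.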

How the data were processed

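RNA-seq of 6 libraries was used, grouped as 3 WT and 3 KO by the sample labels. According to the study's methods, the authors filtered the reads for adapters, unknown bases and quality, mapped read pairs with TopHat (mm10), counted them by gene with HTSeq and deposited the FPKM values used here. Annotation release, strand setting, handling of multiply aligned reads and scaling between libraries are not given in the sources used here. Of 46983 gene IDs, 46488 matched GENCODE vM21 (GRCm38). No library pair was identical (0 pairs).

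Reads were recovered as whole multiples behind each FPKM value (all 25717 genes above 0, tolerance of 0.01 reads or slightly more at high counts). This gave 25.0 to 37.2 M reads counted on genes per library.

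Genes at a mean of 0.5 FPKM or more were tested with limma 3.58.1 in R 4.3.3 (eBayes with trend) on log2(FPKM + 1), without covariates, and called at a Benjamini-Hochberg adjusted p under 0.05. The fit was tested on simulated data. Within-library ratios were compared by exact permutation tests. Python 3.11.15, pandas 2.3.3, numpy 2.4.6, Biopython 1.88 (local alignment of *Hdac1* with *Gm10093*) and matplotlib 3.10.9 were used.

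The 10 genes and the lists were chosen with earlier results of these data known. From each further list, the text names the gene with the highest mean FPKM. It also names up to 3 genes with the largest changes among those without overlap. Exceptions are *Hdac4* and *Hdac9*, the class IIa genes outside the 10, further marker genes, and the genes said to be named or picked after their values were seen. Alternatives were another pseudocount, filter, scaling, variance model or weighting, voom on the recovered reads, the replicate number as a block, and each library left out in turn. Proteins were not analysed here, and the values of some marker genes are not reported here.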

Additional observations from a re-analysis of the deposited data

How the results depend on the processing

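The calls depended on WT replicate 1. With 1 library left out at a time, the number of the 10 genes called ranged from 0 to 1 and the number of all genes called from 0 to 1251, with 1251 and 1 (*Hdac7*) without WT replicate 1 and 1 gene of the whole table without KO replicate 1. Library weights, which gave WT replicate 1 a weight of 0.238, called 1449 genes and 1 of the 10 (*Hdac7*, log2 fold change 0.33). Every other alternative called 0 genes with limma. With median-ratio scaling the log2 fold change of *Hdac3* turned to 0.0098. Of 161 log2 fold changes of the 10 genes under an alternative, 158 kept their direction and their side of the threshold. Same-numbered libraries did not deviate together (correlations of −0.099, 0.139 and −0.276), so the numbers were not taken as pairs, and the replicate block called 0 of the 10 and 0 of all genes with limma (0 and 694 at an unadjusted p under 0.05). The fewest reads behind a value of the 10 genes were 251, for *Sirt3*, with a counting error of 6.31%.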
